A study of Saccharomyces cerevisiae with 26 samples.

Results

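The peptide transporter gene PTR2 and 9 amino acid permease genes were followed through 26 libraries of exponentially growing budding yeast. These were 14 libraries of RNA-Seq, which counts transcripts, and 12 of Ribo-Seq, which counts ribosome-protected mRNA fragments (footprints). The 10 genes were PTR2, GAP1, AGP1, GNP1, BAP2, BAP3, TAT1, TAT2, LYP1 and MUP1, of 7036 genes in the deposited table of counts. All 10 were among the 4473 genes tested. PTR2 was chosen by its measured value, a transcript that stood higher in the strain without PUB1, so its values in that strain are given here as a description, with no test. The other genes were chosen as carriers of amino acids, after the batch differences of these data were known.

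All strains were derived from BY4742 (MATα his3Δ1 leu2Δ0 lys2Δ0 ura3Δ0), an auxotrophic laboratory strain, and were grown in the rich medium YPD, which supplies peptides and amino acids. The strain gir2Δ (gir2::KanMX) lacks Gir2, the partner of the ribosome-binding GTPase Rbg2, and pub1Δ (pub1::KanMX) lacks Pub1, a poly(U)-binding protein that associates with mRNA. Both were made for the study by transforming BY4742 with a KanMX cassette, and the number of clones was not given in the sources used here. Transcripts were counted in 5 libraries of wt, 4 of gir2Δ and 5 of pub1Δ, and footprints in 4 per strain. The labels place every library in 1 of 4 batches without saying what a batch is. Batch 1 held all 3 strains, batch 2 gir2Δ alone, batch 3 pub1Δ alone, and batch 4 wt and, in RNA-Seq, 1 pub1Δ library.

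Both assays drew on the same clarified lysates, made with a buffer that contained Triton and cycloheximide. Nothing in the labels says that replicates came from separate cultures, so p-values measure only the spread between these libraries, which may be technical. In bulk lysates fewer expressing cells and less RNA per cell cannot be told apart. GIR2 was at 1 to 16 counts in gir2Δ RNA-Seq and 375 to 894 elsewhere, and PUB1 at 1 to 47 counts in pub1Δ RNA-Seq and 573 to 1013 elsewhere. For replicate 1 of pub1Δ in RNA-Seq the label for genotype reads gir2, and its title, which gives pub1Δ, was followed. RNA-Seq libraries held 2217490 to 3896827 gene counts. Ribo-Seq libraries held 1517430 to 3123180 in batches 1 and 2 and 540986 to 1570853 in batches 3 and 4, and 41.0% to 50.0% against 53.6% to 61.2% of their reads mapped to several places. The libraries of batches 3 and 4 stood apart from the others for these genes, as described below for each gene, so strains were compared within batches.

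Yeast takes up amino acids and short peptides through permeases, proteins that cross the plasma membrane many times and are inserted co-translationally at the endoplasmic reticulum. External amino acids are read by the SPS sensor (Ssy1, Ptr3 and Ssy5), which releases the transcription factors Stp1 and Stp2 to switch on permease genes. PTR2 encodes the carrier of dipeptides and tripeptides. It answers to the SPS sensor and is also held down by the repressor Cup9, which the ubiquitin ligase Ubr1 removes when dipeptides bind it. GAP1, the general amino acid permease, is instead subject to nitrogen catabolite repression, in which GATA factors such as Gln3 and Gat1 switch on transport of poor nitrogen sources once good ones run out.

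The genes differ in their upstream sequence, and 3 stretches are shown as examples, those of PTR2, GAP1 and AGP1. Each runs from 300 to 201 bases before the start codon in the RefSeq R64 genome, the build of the files, on the strand of the gene. Capitals mark GATAAG, the letters bound by GATA factors, and CGGC, a core of the element through which Stp1 and Stp2 act, each on either strand (CTTATC and GCCG on the other), with no overlap between matches of the 2 motifs.
PTR2, chrXI:615430-615529, plus strand: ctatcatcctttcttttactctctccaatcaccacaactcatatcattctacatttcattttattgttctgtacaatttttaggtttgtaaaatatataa
GAP1, chrXI:514763-514862, plus strand: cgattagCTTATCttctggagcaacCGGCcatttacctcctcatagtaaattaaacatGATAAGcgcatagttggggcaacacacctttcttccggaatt
AGP1, chrIII:78120-78219, minus strand: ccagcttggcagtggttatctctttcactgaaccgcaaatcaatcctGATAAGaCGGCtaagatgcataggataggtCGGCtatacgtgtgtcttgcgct

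In the 300 bases before the start codon, GATAAG was found 2 times at GAP1 and 1 time at AGP1 and at none of the other 8 genes. Of 5916 such windows in the genome 14.7% held it, and 1.66% held 2 or more. CGGC was found at GAP1 (1), AGP1 (2), BAP2 (1) and LYP1 (2), and in 47.9% of all windows. GNP1, BAP3, TAT1, TAT2 and MUP1 held neither motif, like PTR2. A match is a string of letters and was not tested as a site, and a link between motif and level was not tested.

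PTR2 (YKR093W) lies on chromosome XI at 615730 to 617535 on the plus strand and GAP1 (YKR039W) on the same chromosome at 515063 to 516871. BAP2 (YBR068C) and TAT1 (YBR069C) are neighbours on chromosome II, at 373861 to 375690 and 376574 to 378433 on the minus strand. The remaining genes are AGP1 (YCL025C, chromosome III, 76018 to 77919), GNP1 (YDR508C, chromosome IV, 1466453 to 1468444), BAP3 (YDR046C, chromosome IV, 548762 to 550576), TAT2 (YOL020W, chromosome XV, 286172 to 287950), LYP1 (YNL268W, chromosome XIV, 138550 to 140385) and MUP1 (YGR055W, chromosome VII, 599417 to 601141). Each has 1 coding exon, and the coding lengths run from 1725 to 1992 bases. Windows of 28 bases, about a footprint long, that recur elsewhere in the genome made up 1.99% of LYP1, 1.07% of AGP1 and 1.02% of GNP1 and none of the other 7, so few footprints of these related genes could be split between copies. An annotated RNA, TBRT, overlaps TAT1 on the opposite strand. The counts are from the sense strand, and antisense RNA-Seq counts of TAT1 stayed between 5 and 28 per library.

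**Figure D1:**
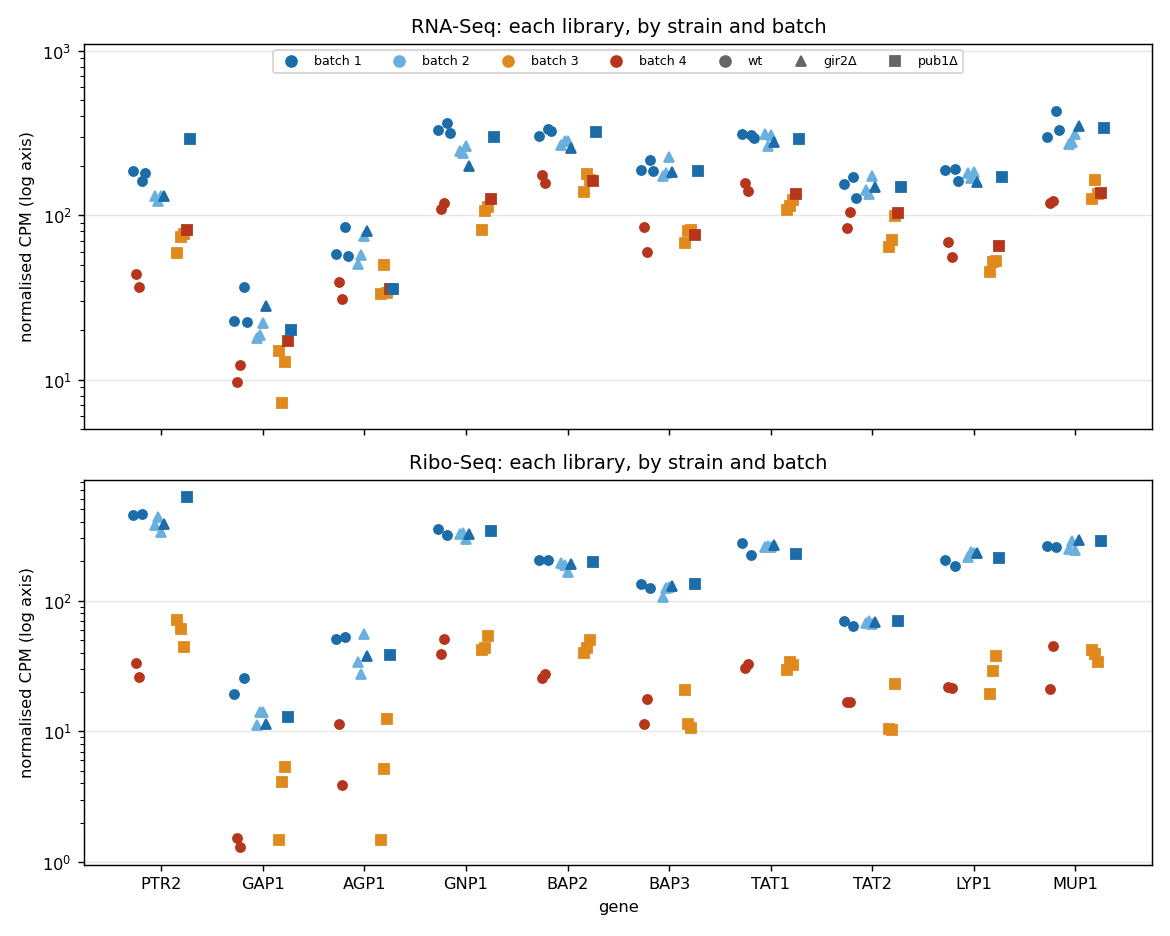
Normalised CPM (log axis) of the 10 genes in every RNA-Seq library (top) and Ribo-Seq library (bottom), coloured by batch and shaped by strain. In Ribo-Seq all 5 libraries of batches 3 and 4 lie below all 7 of batches 1 and 2 for each gene. Of all tested genes 17.1% did the same, and GAP1 and AGP1 passed the filter on low counts through batches 1 and 2. PTR2 in pub1Δ of batch 1 is the highest value at 619.

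Levels are given as normalised CPM, which are counts scaled to a common library size with TMM factors. Genes are compared with each other only after division by coding length in kb. In the 3 wt RNA-Seq libraries of batch 1, the methionine permease gene MUP1 had the highest mean at 205 normalised CPM per kb (range 174 to 249), followed by the branched-chain amino acid permease gene BAP2 at 176 (166 to 183), the glutamine permease gene GNP1 at 168 (159 to 182) and TAT1, for tyrosine and related amino acids, at 165 (159 to 169). Neighbours among these overlapped in range, so their order is not resolved. A second group held BAP3, a second branched-chain permease gene, at 109, the lysine permease gene LYP1 at 98.4, PTR2 at 97.5 and the tryptophan permease gene TAT2 at 84.8, again with overlapping neighbours. AGP1, a broad-range permease gene, at 34.9 (29.6 to 44.5) and GAP1 at 15.1 (12.5 to 20.1) lay below these without overlap.

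By footprints the order differed. In the pair of wt Ribo-Seq libraries of batch 1, PTR2 stood first at 251 normalised CPM per kb (248 to 255), with no overlap with GNP1 at 167 (159 to 176), which was next. MUP1 followed at 151, TAT1 at 134, BAP2 at 112 and LYP1 at 106, of which BAP2 and LYP1 overlapped. BAP3 at 71.7, TAT2 at 37.6, AGP1 at 27.4 and GAP1 at 12.5 closed the order without overlap. The transcript of PTR2 was therefore mid-ranked and its footprints were the most abundant of the 10 in these libraries.

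Footprints relative to transcripts were read as the ratio of normalised CPM in Ribo-Seq to that in RNA-Seq, in which gene length cancels. The libraries compared had the same strain, batch and replicate number. Each assay was scaled on its own, so the ratio is relative and not a number of footprints on a transcript. The labels do not say that libraries of one number come from one culture, so these ratios rest on matched numbers. For PTR2 the ratio was 2.41 and 2.86 in the wt replicates of batch 1. The other 9 genes lay between 0.374 (TAT2) and 1.08 (LYP1), against a median of 0.687 over all tested genes. Of all genes tested, 1.32% had a mean ratio at or above that of PTR2. In gir2Δ of batch 2 the ratio of PTR2 was 2.56 to 3.59 and that of the other genes at most 1.39, and in gir2Δ of batch 1 it was 2.93 against at most 1.63. PTR2 had the highest ratio of the 10 genes in each of these libraries.

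The median change of these genes was larger between batches of wt than between strains. GAP1 and AGP1 passed the filter on low counts through batches 1 and 2, as given below, so they are left out of the counts that follow. Both wt libraries of batch 4 were below all wt libraries of batch 1 for 8 of the other 8 genes in RNA-Seq and in Ribo-Seq, where 26.7% and 34.7% of all tested genes did the same. These 8 were all called lower in batch 4 by the edgeR quasi-likelihood test (Benjamini-Hochberg adjusted p under 0.05) in both assays. The genes were chosen after the batch differences were known, so these calls and their p-values are a description and no independent test. Over all tested genes, 30.3% were called for transcripts and 31.1% for footprints, and 20.1% and 20% were called lower. At an unadjusted p under 0.05 the shares of all genes were 40% and 41%, with 8 of the 8 genes passing in each assay. The median log2 change of these 8 genes was -1.54 in RNA-Seq (range -2.17 to -0.72) and -2.96 in Ribo-Seq (-3.94 to -1.99), while the medians of all tested genes were -0.03 and -0.0058.

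PTR2 had the lowest log2 change of the 10 in RNA-Seq. Its transcript stood at 186, 160.5 and 182 normalised CPM in wt replicates 1, 4 and 5 of batch 1 and at 44.1 and 36.6 in replicates 2 and 3 of batch 4. Its footprints stood at 447 and 459.7 in batch 1 and at 33.4 and 26.03 in batch 4. The groups did not overlap in either assay. The fall was 4.51-fold in RNA-Seq (log2 -2.17, SE 0.14, edgeR adjusted p 3.3e-09) and 15.3-fold in Ribo-Seq (log2 -3.94, SE 0.14, edgeR adjusted p 1.6e-08). The wt RNA-Seq libraries also entered the contrast by which PTR2 was chosen, so its p-values between batches are no independent test.

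GNP1, BAP2, BAP3 and TAT1, permease genes known to answer to the SPS sensor, fell as well. GNP1 transcripts stood at 328, 362 and 316 normalised CPM in wt of batch 1 and at 109.7 and 119 in batch 4, and its footprints at 350.5 and 317 against 38.7 and 50.7. The changes were 3.04-fold in RNA-Seq (log2 -1.60, SE 0.12, edgeR adjusted p 1.2e-08) and 7.37-fold in Ribo-Seq (log2 -2.88, SE 0.15, edgeR adjusted p 1.4e-07). BAP2 went from 304 to 335 in RNA-Seq of batch 1 to 157 and 175 in batch 4, and BAP3 from 187 to 217 to 59.5 and 85.3. TAT1 stood at 296 to 314 against 139.7 and 157. In Ribo-Seq BAP2 had 204.5 and 205 normalised CPM in batch 1 and 25.8 and 27.3 in batch 4, and fell by 2.94 on the log2 scale. BAP3 had 135 and 126 against 11.4 and 17.6, and TAT1 277 and 223 against 30.4 and 32.5. In RNA-Seq the log2 changes were -1.01 for BAP2, -1.49 for BAP3 and -1.10 for TAT1. BAP2, BAP3 and TAT1 thus fell less than the median of the 8 in RNA-Seq (-1.54). In Ribo-Seq BAP3 (-3.14) and TAT1 (-2.98) fell more than that median (-2.96), so the 3 genes did not stand apart in both assays.

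TAT2 moved least. Its transcript stood at 156, 170.3 and 127 normalised CPM in wt of batch 1 and at 83.6 and 105 in batch 4, and its footprints at 70.2 and 63.7 against 16.7 and 16.9. The fall was 1.65-fold in RNA-Seq (log2 -0.72, SE 0.15, edgeR adjusted p 0.00116) and 3.96-fold in Ribo-Seq (log2 -1.99, SE 0.18, edgeR adjusted p 8.6e-06). For the lysine permease gene LYP1 the RNA-Seq values were 189.6, 192 and 161 against 68.5 and 55.4, and the Ribo-Seq values 206 and 183 against 22.03 and 21.5. MUP1 had 301 to 429.6 against 119 and 122 in RNA-Seq and 262 and 259 against 21.3 and 44.9 in Ribo-Seq. LYP1 and MUP1 were 3.01-fold and 3.04-fold lower in RNA-Seq of batch 4, at log2 changes of -1.59 and -1.61.

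GAP1 and AGP1 were scarce. AGP1 footprints stood at 51.1 and 53.1 normalised CPM in wt of batch 1 and at 11.4 and 3.90 in batch 4, from 15 and 6 counts. GAP1 footprints stood at 19.4 and 25.7 in batch 1 and at 1.52 and 1.30 in batch 4, from 2 counts in each library, so its ratio of 15.9 between the batches has a 95% exact interval of 6.04 to 59.4 from counting alone. GAP1 reached 10 CPM in none and AGP1 in 2 of the 5 Ribo-Seq libraries of batches 3 and 4, so both passed the filter through batches 1 and 2 and had to be lower elsewhere. The other 8 genes reached 10 CPM in every library of both assays.

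**Figure D2:**
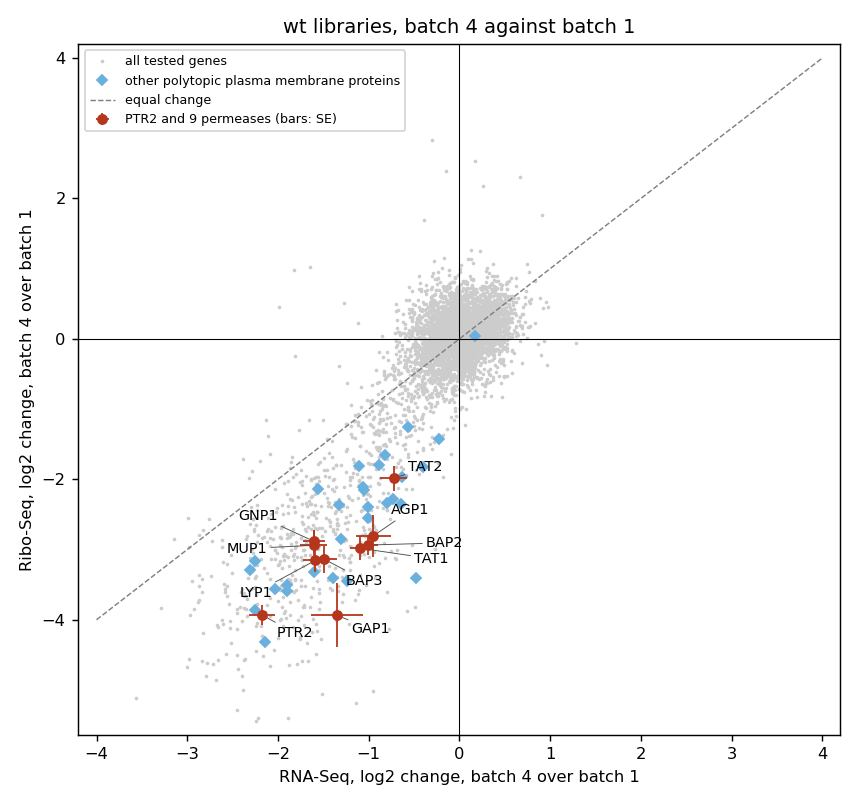
Log2 change between wt libraries of batch 4 and batch 1, RNA-Seq on the horizontal and Ribo-Seq on the vertical axis, for all 4473 tested genes (grey), 29 other polytopic plasma membrane proteins (blue) and the 10 genes (red, bars are SE). The 10 genes lie below the dashed line of equal change, from TAT2 at -0.72 and -1.99 to PTR2 at -2.17 and -3.94.

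Footprints fell more than transcripts. The change of Ribo-Seq beyond that of RNA-Seq between the wt batches (ribosome occupancy, tested as the interaction of batch and assay) was below 0 and called for each of the 8 genes, with a median log2 change of -1.47 and a range from -1.79 (BAP2) to -1.12 (TAT2). GAP1 (-2.47) and AGP1 (-1.72) were below 0 as well, under the filter named above. Of all tested genes 13% were called and 7.29% called lower, 26.8% had an unadjusted p under 0.05, and the median of all was 0.09. With median-of-ratios factors in place of TMM the median of all genes shifted from 0.09 to -0.04 and the share of calls that were higher went from 43.8% to 23.8%, with the 8 genes still called lower. The occupancy change of PTR2 was -1.62 (SE 0.22, edgeR adjusted p 0.00014), with the limit from its choice given above. Those of AGP1, GAP1, MUP1 and TAT2 depended on single wt libraries. AGP1 was not called without RNA-Seq replicate 2 (-1.54) or Ribo-Seq replicate 3 (-1.10), and MUP1 not without RNA-Seq replicate 3 (-1.16) or Ribo-Seq replicate 2 (-0.76). TAT2 lost its call without RNA-Seq replicate 3 (-0.93) or Ribo-Seq replicate 1, 2 or 3 (-1.03, -1.09 and -1.13). GAP1 lost it without RNA-Seq replicate 1 or 3 (-2.37 and -2.27) or Ribo-Seq replicate 2, 3 or 4 (-2.55, -2.36 and -2.27). In wt of batch 4 the ratios of footprints to transcripts of PTR2 were 0.758 and 0.7102, the highest of the 10 there too. The others lay between 0.105 (GAP1) and 0.428 (GNP1), but 39.1% of all genes were now at or above PTR2. In pub1Δ of batch 3 its ratios were 1.20, 0.8287 and 0.582, and in replicate 3 LYP1 was higher at 0.707. There 26.8% of all genes were at or above PTR2.

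Over the 3 strains together the division by batch was the same, with gir2Δ present in batches 1 and 2 alone. Libraries of batches 3 and 4 were all below those of batches 1 and 2 for the same 8 genes in RNA-Seq and in Ribo-Seq, where 15.7% and 17.1% of all tested genes did so. Together the 10 genes held 0.174% to 0.227% of RNA-Seq counts in batches 1 and 2 and 0.0661% to 0.0941% in batches 3 and 4. In Ribo-Seq they held 0.175% to 0.219% and 0.0206% to 0.0314%. The narrowest RNA-Seq gap without overlap was that of GAP1, whose lowest value in batches 1 and 2 was 18.0 and whose highest in batches 3 and 4 was 17.2 normalised CPM. The widest was that of LYP1, at 159.8 against 68.5.

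Other membrane transporters were lower in wt of batch 4 as well. Of 11 further amino acid permease genes 6 were tested, and AGP2, CAN1, HIP1, MMP1, DIP5 and SAM3 were all called lower in RNA-Seq and Ribo-Seq, where 20.1% and 20% of all tested genes were, with medians of -1.36 and -3.39. In occupancy 4 of them were called lower, AGP2 (-1.34) and MMP1 (-1.48) not. The oligopeptide transporter gene OPT1, the one tested gene of the peptide and allantoate transporters, was called lower in both assays, at log2 changes of -0.98 and -2.60. Of 36 other polytopic plasma membrane proteins 29 were tested, and 25 were called lower in RNA-Seq, 28 in Ribo-Seq and 18 in occupancy, with none higher and medians of -1.06, -2.37 and -1.29. The shares of all tested genes called lower were 20.1%, 20% and 7.29%. The plasma membrane proton pump gene PMA1 stood at -2.15 in RNA-Seq, -4.32 in Ribo-Seq and -2.03 in occupancy. The magnesium transporter gene ALR1 was the exception in Ribo-Seq, at 0.04 there and at 0.17 in RNA-Seq. Depth and the share of reads mapped to several places differed between the same batches, as given above, and their part in these differences was not tested.

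In wt of batch 4 the genes that regulate the permeases were called lower in RNA-Seq about as often as all tested genes. Over 4 regulatory lists with 30 tested genes, 6 were lower and 0 higher in RNA-Seq, and 10 and 0 in Ribo-Seq. Of all 4473 tested genes 20.1% and 20% were called lower, and 455 and 499 genes higher. In occupancy 1 of the 30 was called lower and 2 higher, beside 326 and 254 of all tested genes. Of 8 tested genes of the SPS pathway, ASI1, ASI2 and ASI3 were called lower in RNA-Seq of wt batch 4 (-2.03, -0.91 and -1.73). These encode proteins of the inner nuclear membrane that keep unprocessed Stp1 and Stp2 from acting. STP1 (-0.54) and STP2 (-0.70) were called lower in Ribo-Seq, as were ASI1 (-3.14) and ASI3 (-2.61), and none of the 8 was called in occupancy. Among 5 tested genes of the Cup9 and Ubr1 branch, UBR1 fell by 0.53 in RNA-Seq and rose by 0.93 in occupancy, CYC8, a corepressor subunit, fell by 0.40 in Ribo-Seq, and CUP9 stood at 0.27 and -0.29 without a call.

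Among 6 tested nitrogen catabolite repression genes, none was called in RNA-Seq. GAT1 (-1.0) and NPR1 (-0.79), a kinase that protects Gap1 from turnover, were called lower in Ribo-Seq, and TOR1 was called higher in occupancy (0.78). Of 11 tested genes for permease exit from the endoplasmic reticulum and permease turnover, SHR3, the packaging chaperone of amino acid permeases, was called lower in both assays (-1.84 for transcripts, -2.30 for footprints). AKR1, a palmitoyl transferase with several membrane spans, was called lower at -1.55 and -2.02. RSP5, the ubiquitin ligase that marks permeases for endocytosis, was called lower in Ribo-Seq (-1.04) and occupancy (-0.61). Lower calls numbered 2 of these 11 genes in RNA-Seq, 3 in Ribo-Seq and 1 in occupancy. Of all tested genes 20.1%, 20% and 7.29% were called lower.

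The next comparison asked whether loss of GIR2 altered the transcripts or footprints of these genes. With batch as a term of the model, the gir2Δ estimate rests on replicate 4 of batch 1. By edgeR 0 of the 10 genes were called in RNA-Seq, 0 in Ribo-Seq and 0 in occupancy, where 0.0671%, 0.0224% and 0% of all genes were called. DESeq2 called 1, 0 and 0, beside 16, 2 and 4 of the 4473 tested genes. At an unadjusted p under 0.05 there were 3, 1 and 1 of the 10, against 14%, 8.43% and 7.6% of all genes. In RNA-Seq PTR2, GNP1 and BAP2 had all 4 gir2Δ libraries below the 3 wt libraries of batch 1, which 9.52% of all genes did, and in Ribo-Seq PTR2, GAP1 and BAP2 were below both wt libraries, which 13.4% did.

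GNP1 had the lowest p of the 10. Its transcript stood at 199 normalised CPM in gir2Δ of batch 1 and at 246, 239 and 265 in gir2Δ of batch 2, against 328, 362 and 316 in wt of batch 1. The groups did not overlap, and the fitted log2 change was -0.72 (SE 0.16, edgeR adjusted p 0.0933), 1.64-fold lower. The adjusted p ranged from 1.7e-05 to 0.97 over 18 other fits, of which 6 passed the threshold, among them DESeq2 (0.00656). The highest came without a batch term, where the change was -0.06. Its footprints stood at 324.5 in gir2Δ of batch 1 and at 325, 326 and 298 in batch 2, within or just below the wt values of 350.5 and 317, and the fitted Ribo-Seq change was -0.04. The occupancy change of GNP1 was 0.70 (SE 0.22, edgeR adjusted p 0.371), and its ratio of footprints to transcripts was 1.63 in gir2Δ of batch 1 and 1.13 to 1.37 in batch 2, against 0.876 and 1.07 in wt of batch 1.

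PTR2 transcripts stood at 131 normalised CPM in gir2Δ of batch 1 and at 130.1, 122 and 131 in batch 2, all below the 160.5 to 186 of wt in batch 1. The fitted change was -0.39 (SE 0.15, edgeR adjusted p 0.268). Its footprints were 384 in batch 1 and 381, 439 and 335 in batch 2, against 447 and 459.7 in wt. BAP2 transcripts were 258 in batch 1 and 266, 283 and 282 in batch 2, against 304, 335 and 327, a fitted change of -0.32 (SE 0.13, edgeR adjusted p 0.287). The changes of PTR2 and BAP2 were of opposite sign without a batch term, at 0.077 and 0.069, where wt libraries of batch 4 enter the comparison.

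GAP1 footprints stood at 11.4 normalised CPM in gir2Δ of batch 1 and at 11.2, 14.0 and 14.1 in batch 2, below the 19.4 and 25.7 of wt in batch 1. The fitted change was -0.97 (SE 0.35, edgeR adjusted p 0.522), from 17 to 33 counts per gir2Δ library. Its transcripts did not separate, at 18.0 to 27.9 in gir2Δ and 22.5 to 36.4 in wt. The fitted changes of BAP3, TAT1, TAT2, LYP1, MUP1 and AGP1 had unadjusted p above 0.05 in all 3 readouts. Over the 10 genes the median log2 change was -0.12 in RNA-Seq and -0.03 in Ribo-Seq, beside -0.0026 and -0.04 for all tested genes.

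**Figure D3:**
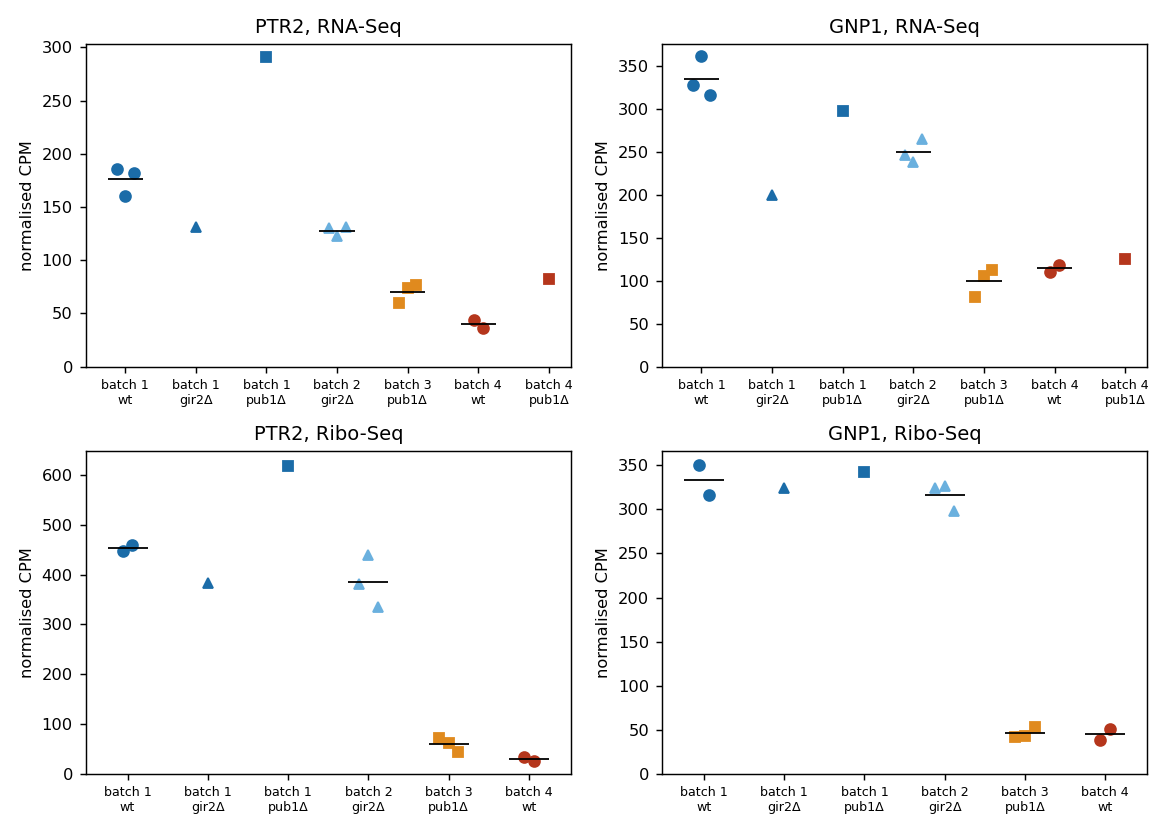
Normalised CPM of PTR2 (left) and GNP1 (right) in RNA-Seq (top) and Ribo-Seq (bottom) by batch and strain, 1 point per library, with a line at the mean where a batch held more than 1 library of a strain. PTR2 in pub1Δ is above wt within batches 1 and 4, and GNP1 transcripts but not its footprints are lower in gir2Δ than in wt of batch 1.

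Loss of PUB1 could be compared with wt in batches 1 and 4 for transcripts, through replicates 5 and 4, but for footprints in batch 1 alone, through replicate 4. The wt libraries are the same as in the gir2Δ comparison. PTR2 was the member chosen for this contrast, and the following values describe it without a test. Its transcript stood at 290.5 normalised CPM in pub1Δ of batch 1 against 160.5 to 186 in wt, 1.65 times the wt mean, and at 81.8 in pub1Δ of batch 4 against 44.1 and 36.6 in wt, 2.03 times the mean. The fitted log2 change was 0.83 (SE 0.11). Its footprints stood at 619 in pub1Δ of batch 1 against 447 and 459.7, 1.36 times the wt mean, a fitted change of 0.45 (SE 0.16). The occupancy change was -0.36 (SE 0.21).

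The pub1Δ libraries of batch 3 have no wt library beside them. PTR2 transcripts stood there at 59.3, 73.4 and 76.6 normalised CPM and footprints at 71.2, 60.8 and 44.5, above the wt libraries of batch 4 and below those of batch 1. Read across all batches, PTR2 in pub1Δ overlapped with wt, and without a batch term the change was -0.068 for transcripts and -0.25 for footprints. Without pub1Δ replicate 4 the fitted RNA-Seq change was 0.72 and without replicate 5 it was 1.01.

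The share of PTR2 in the counts of the 10 genes compares it with permease genes of the same library. In RNA-Seq it was 6.99% to 9.07% in wt of batch 1 and 13.8% in pub1Δ of batch 1 (95% exact interval 13.0% to 14.8%). In batch 4 it was 4.95% and 4.37% in wt and 8.76% in pub1Δ (7.64% to 9.98%), and in gir2Δ it was 6.62% to 7.27%. In Ribo-Seq of batch 1 it was 22.1% and 24.0% in wt, 19.9% in gir2Δ and 28.9% in pub1Δ (27.9% to 30.0%). The share was highest in pub1Δ within each batch that also held wt. These intervals cover counting error only. PTR2 was chosen for its rise in pub1Δ, so its shares there are a description with no test.

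**Figure D4:**
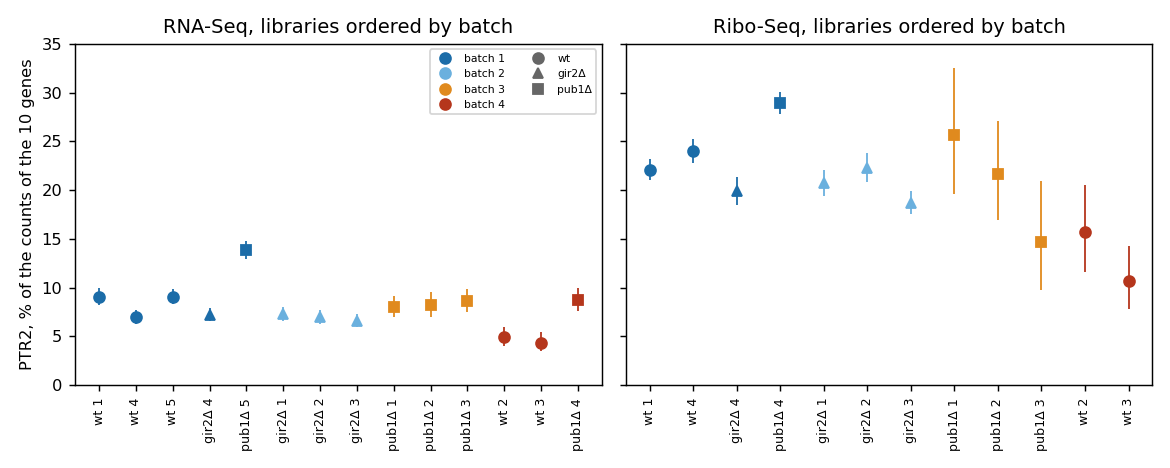
PTR2 as a percentage of the counts of the 10 genes in each RNA-Seq library (left) and Ribo-Seq library (right), ordered by batch. The 95% exact binomial intervals cover counting error only and are no test of PTR2, which was chosen for its rise in pub1Δ. In RNA-Seq pub1Δ of batch 1 reached 13.8%, above 9.07% as the highest wt library, and in Ribo-Seq 28.9%, above 24.0%.

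The 9 permease genes that were not chosen for this contrast gave 0 calls by edgeR in pub1Δ RNA-Seq, Ribo-Seq or occupancy, where 0.0447%, 0.134% and 0% of all genes were called. DESeq2 also called none of them. Their log2 changes ran from -0.50 to 0.05 in RNA-Seq, with a median of -0.03, and from -0.80 to 0.13 in Ribo-Seq, with a median of 0.03. At an unadjusted p under 0.05 there were 0, 1 and 0 of the 9, against 9.39%, 7.91% and 3.76% of all tested genes. The 1 gene was GAP1, whose footprints stood at 12.8 normalised CPM in pub1Δ of batch 1 against 19.4 and 25.7 in wt (log2 -0.80, SE 0.28, edgeR adjusted p 0.440). Its transcripts were below the wt range in batch 1 (20.0 against 22.5 to 36.4) and above it in batch 4 (17.2 against 9.66 and 12.4).

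AGP1, the other gene with a GATAAG match, had 35.5 normalised CPM of transcript in pub1Δ of batch 1 against 58.2, 84.7 and 56.4 in wt, and 35.7 in pub1Δ of batch 4, within the wt values of 39.5 and 31.1. The difference seen in batch 1 was thus not present in batch 4, and the fitted change was -0.50 (SE 0.24). GNP1 stood at 297.5 against 316 to 362 in batch 1 and at 125 against 109.7 and 119 in batch 4. BAP2, BAP3, TAT1, TAT2, LYP1 and MUP1 lay between 0.91 and 1.13 times the wt mean in pub1Δ of batches 1 and 4, in RNA-Seq and in Ribo-Seq.

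In the regulatory lists no gene was called in any of the 6 strain comparisons. CUP9, the repressor of PTR2, stood at -0.30 in pub1Δ Ribo-Seq (SE 0.14, edgeR adjusted p 0.624), and UBR1 at -0.14 in pub1Δ RNA-Seq (SE 0.12). SHR3 stood at -0.49 in pub1Δ Ribo-Seq (SE 0.13, edgeR adjusted p 0.230). Of the SPS genes PTR3, a sensor subunit, stood highest in pub1Δ Ribo-Seq at 0.41 (SE 0.26). In gir2Δ RNA-Seq RSP5 stood at -0.78 (SE 0.15, edgeR adjusted p 0.0599), with an occupancy change of 0.83 (SE 0.19, edgeR adjusted p 0.155), and the GATA factor genes GLN3 and GAT1 at -0.60 and -0.57. Among other permease genes, AGP2 stood at 0.88 in pub1Δ RNA-Seq (SE 0.32, edgeR adjusted p 0.397) and at -0.93 in gir2Δ (SE 0.48, edgeR adjusted p 0.39), and OPT1 at 0.17 and 0.38 in pub1Δ RNA-Seq and Ribo-Seq. In gir2Δ RNA-Seq DIP5 stood at -0.88 (SE 0.24) and CAN1 at -0.67 (SE 0.18), each at an edgeR adjusted p of 0.179. Of the 6 further amino acid permease genes tested, 5 were below 0 there.

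Genes with a pattern like that of PTR2 were looked for over the 26 libraries after centring log2 CPM on each assay and batch, which leaves differences within batches. The highest Pearson correlations were those of PIN4 (0.844), ATG8 (0.786), AIP5 (0.783), MTC1 (0.776) and SPO24 (0.772). The points share libraries and strains, batches 2 and 3 hold 1 strain each, and the values are descriptive. The 9 permease genes had correlations with PTR2 between -0.41 (AGP1) and 0.24 (BAP3), so none of them was close in pattern to PTR2. PIN4, which encodes an RNA-binding protein, had 131 normalised CPM of transcript in pub1Δ of batch 1 against 94.6 to 116 in wt and 67.4 in gir2Δ. ATG8, the ubiquitin-like protein of autophagosomes, had 15.1, 5.99 to 9.34 and 4.16 in the same groups.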

How the data were processed

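RNA-Seq and Ribo-Seq were measured in 14 and 12 libraries of 3 yeast strains. The authors deposited unnormalized counts of reads by gene. Before that they cut adapters (cutadapt 2.10), collapsed identical footprint reads (seqkit), set aside rRNA reads (bowtie2 1.2.3) and used STAR 2.7.9a for mapping and counting against Ensembl R64-1-1. Each of the 26 columns of the table equalled the sense-strand column of its library's file. Names, coordinates and sequences came from RefSeq R64. No protein or promoter table was used here.

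Genes with 10 CPM in at least 4 libraries of each assay were tested, 4473 of the 6866 genes with a count. Counts were fitted in R 4.3.3 with edgeR 4.0.16 (TMM factors, quasi-likelihood F-test, Benjamini-Hochberg adjustment over all tested genes, called at an adjusted p under 0.05). Strain models held batch and strain for all libraries of an assay, and occupancy models also their interactions with assay. The batch comparison used wt libraries alone. The study corrected batches with ComBat-seq before a model of strain, which is an alternative here (sva 3.50.0), as are DESeq2 1.42.0, other factors, filters and batch terms, a replicate block, limma 3.58.1 and leaving out single libraries. SE is that of the fitted log2 change, and log2 CPM used a prior count of 2. The pub1Δ fits of RNA-Seq and Ribo-Seq were tested on simulated counts with 200 changed genes. Of changes of 1 on the log2 scale, 95.6% and 79.8% were called, with 15 and 17 false calls. The gir2Δ, occupancy and wt batch fits were not tested in this way.

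The 10 genes and 7 gene lists were chosen with earlier results of these data known. All 10 genes are named. Changes with SE and adjusted p are printed mainly for those with an unadjusted p under 0.05. From each list the called genes, or at most 3 with the largest absolute change, could be named, and of long lists a few are. The 5 genes most correlated with PTR2 are named. AGP1 in pub1Δ RNA-Seq was chosen after its values were seen.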

Additional observations from a re-analysis of the deposited data

Results flagged for a closer look

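Of 60 groups of 4 or 5 libraries of the 10 genes, 17 had a library apart from the rest by the ratio of its gap to the range of the group, where chance gives about 1 in 20. Most of these single out the batch 1 library of pub1Δ, whose other libraries are of batches 3 and 4. In pub1Δ RNA-Seq, replicate 5 was highest, with ratios of 0.903 for PTR2, 0.797 for GNP1, 0.779 for BAP2, 0.885 for BAP3, 0.849 for TAT1, 0.846 for LYP1 and 0.827 for MUP1. In pub1Δ Ribo-Seq, replicate 4 was highest, with ratios of 0.953 for PTR2, 0.961 for GNP1, 0.938 for BAP2, 0.918 for BAP3, 0.978 for TAT1, 0.906 for LYP1 and 0.969 for MUP1. The others were AGP1 in pub1Δ RNA-Seq, where replicate 2 was highest (0.853), PTR2 in gir2Δ RNA-Seq, where replicate 2 was lowest (0.862), and GNP1 in gir2Δ Ribo-Seq, where replicate 3 was lowest (0.946).

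The change between wt batches differed between the assays for the 8 genes at 10 CPM in every library, by the interaction of batch and assay in edgeR. Of all tested genes 13% were called and 7.29% called lower. The log2 change in Ribo-Seq minus that in RNA-Seq was -2.47 for GAP1, -1.79 for BAP2, -1.74 for TAT1, -1.72 for AGP1, -1.62 for PTR2, -1.51 for BAP3, -1.42 for LYP1, -1.19 for MUP1, -1.13 for GNP1 and -1.12 for TAT2. GAP1 and AGP1 passed the filter on low counts through batches 1 and 2, and GAP1 rests on 2 counts in each wt Ribo-Seq library of batch 4.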

How the results depend on the processing

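The wt batch changes of the 10 genes kept their sign in all other fits of RNA-Seq, Ribo-Seq and occupancy. A filter at 30 CPM removed GAP1, leaving 9 genes, all called. GAP1 and AGP1 met the filter on low counts through other batches and had to be lower in Ribo-Seq of batch 4, so their calls are no test. The other fits include leaving out each wt library. Over them the log2 changes of the other 8 genes ran from -2.30 (PTR2) to -0.55 (TAT2) in RNA-Seq. They ran from -4.09 (PTR2) to -1.91 (TAT2) in Ribo-Seq and from -1.92 (BAP2) to -0.76 (MUP1) in occupancy. The occupancy calls of MUP1 and TAT2 depended on single wt libraries, as given above. Where 1 library of a batch was left, it was taken to vary like the others.

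In gir2Δ RNA-Seq the number of the 10 genes called went from 0 to 3 with ComBat-seq, 2 with batches 1 and 2 alone, and 1 each with DESeq2, the compared strain and wt alone and no filter. ComBat-seq gave 2 in gir2Δ Ribo-Seq, 5 in gir2Δ occupancy and 2 in pub1Δ Ribo-Seq, where 2 batch levels gave 1. PTR2 was chosen for its rise in pub1Δ, so counts in pub1Δ that hold it are no test of it. Its fitted change in pub1Δ RNA-Seq ranged from -0.068 to 1.01 over 19 other fits, lowest without a batch term. Leaving out libraries gave 0 calls among the 10 genes in each strain comparison other than pub1Δ RNA-Seq. Without a batch term the changes reversed to 0.069 for BAP2 and 0.077 for PTR2 in gir2Δ RNA-Seq and to -0.068 and -0.25 for PTR2 in pub1Δ RNA-Seq and Ribo-Seq. Calls over all genes ranged over the alternatives from 1 to 1516 in gir2Δ RNA-Seq, 1 to 1138 in gir2Δ Ribo-Seq, 0 to 1013 in gir2Δ occupancy, 1 to 491 in pub1Δ RNA-Seq, 1 to 547 in pub1Δ Ribo-Seq and 0 to 112 in pub1Δ occupancy, the highest after ComBat-seq each time. The cause was not tested.

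Same-numbered libraries of wt and a deletion strain had correlations from -0.60 to 0.89. Values were centred on strain and assay but not on batch, so these correlations also carry batch differences. They cannot show whether the replicate numbers of strains pair. With the number as a replicate block, 1 of the 10 genes (GNP1, adjusted p 0.0499) was called in gir2Δ RNA-Seq and 0 in pub1Δ RNA-Seq. RNA-Seq and Ribo-Seq libraries of one number correlated at 0.0857 to 0.274, and a block of these numbers in limma gave 0 calls in both strain comparisons of occupancy. In wt occupancy the same replicate block, added after the data were seen, called 10 of the 10 genes and 701 genes in all. GAP1 and AGP1 are among the 10 and had to be lower in Ribo-Seq of batch 4 under the filter on low counts. No paired analysis was possible because wt libraries of batches 1 and 4 share no number within an assay. Leaving out gir2Δ replicate 4, or pub1Δ Ribo-Seq replicate 4, was not run, since the contrast then has no batch shared with wt. The 1 to 4 counts of GAP1 in each Ribo-Seq library of batches 3 and 4 limit its footprint values there.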

Other observations

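Antisense RNA-Seq counts at PTR2, looked at after their values were seen and used in no comparison above, were 10, 9, 19, 8 and 9 in wt replicates 1 to 5, 4, 7, 32 and 21 in gir2Δ replicates 1 to 4, and 0, 0, 0, 3 and 4 in pub1Δ replicates 1 to 5. The pub1Δ libraries of batches 1 and 4 had 4 and 3, and the wt libraries of the same batches had 8 to 10 and 9 to 19. These are unscaled counts from 1 pub1Δ library per batch, and the share of all genes with such a difference was not counted. The sense counts were 1549, 1569 and 1541 over the libraries of wt, gir2Δ and pub1Δ. They are unscaled sums over 5, 4 and 5 libraries of differing batches and do not compare levels between strains. Antisense counts at BAP2 overlapped among the strains, at 2 to 17, 3 to 11 and 1 to 11.

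SPO24, a short gene induced in sporulation and the fifth in likeness to PTR2, had 265 and 192 normalised CPM of transcript in pub1Δ of batches 1 and 4, against 99.8 to 154 and 56.3 to 108 in wt, and 48.7 in gir2Δ of batch 1. Its footprints stood at 306 in pub1Δ of batch 1 against 120.2 and 162 in wt and 58.3 in gir2Δ. Its fitted log2 changes of transcript were 1.08 (SE 0.21) in pub1Δ and -1.44 (SE 0.33) in gir2Δ. SPO24 was chosen for its likeness to PTR2 over these libraries, so the values are a description with no test.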
